A study of Mus musculus with 9 samples.

Results

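The genes described here are 38 genes of the lysosome, taken by symbol from the 55487 gene IDs counted in each library, and all 38 were found. They comprise 8 cysteine proteases, 4 aspartic and serine proteases, the protease inhibitor Cst3, 4 glycosidases, 8 genes of lipid breakdown and lipid handling, 3 membrane glycoproteins, 6 subunits of the V-ATPase, and 4 genes of lysosome control (Tfeb, Tfe3, Mitf and Mcoln1). RNA was sequenced from untreated monocytes sorted from mouse spleen, all of strain C57BL/6, in 3 groups of 3 libraries. WT Ly6Chi holds the classical subset and WT Ly6Clo the nonclassical subset of wild-type mice. KO Ly6Clo holds the nonclassical subset of Cebpa +37-/- mice, which lack the +37 element of Cebpa on both alleles. The gene product, C/EBP-alpha, is a transcription factor needed for myeloid development. The labels do not name the bounds of the element, or the age or sex of the mice, and do not say that replicates come from separate mice. A p-value therefore reflects only how far these libraries spread, and that spread may be largely technical. Sex-linked genes, given below, show only that the WT Ly6Chi libraries did not all come from 1 mouse. Ly6Chi monocytes of the mutant mice were not analysed here. No label ties the loss of the element to 1 cell type.

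Lysosomes are acidic organelles in which hydrolases break down protein, sugar chains and lipid brought in by phagocytosis, endocytosis and autophagy. The V-ATPase, a proton pump with a membrane part (V0) and a catalytic part (V1), makes the interior acidic, and most of the hydrolases work only at that pH. TFEB, TFE3 and MITF, the MiT/TFE factors, bind E-box motifs near the start of many lysosomal genes, and calcium released through TRPML1, the product of Mcoln1, helps to activate TFEB. In monocytes, cathepsins also process antigen and trim the invariant chain of MHC class II.

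Total counts lay between 48141590 and 173703361 per library, and a count of 3 corresponds to 0.0173 to 0.0623 CPM (counts scaled to library size, with TMM scaling in what follows). Cebpa stood at 31.5, 51.3 and 51.6 CPM in WT Ly6Chi replicates 1 to 3, at 18.2, 17.7 and 19.2 CPM in WT Ly6Clo, with KO Ly6Clo at 4.04, 2.89 and 2.74 CPM (edgeR adjusted p = 0.015 for KO against WT Ly6Clo). Ly6c2 lay between 862 and 1063 CPM in WT Ly6Chi and between 2.14 and 5.33 CPM in the 6 Ly6Clo libraries, and Ccr2 between 990 and 1512 CPM against 83.8 to 187 CPM. Treml4, a marker of the nonclassical subset, ran from 148 to 398 CPM in WT Ly6Chi and from 1170 to 1841 CPM in the Ly6Clo libraries. Nr4a1 (322 to 2785 CPM against 1638 to 11134 CPM) and Cx3cr1 (180 to 459 CPM against 324 to 605 CPM) overlapped between the subsets. WT Ly6Chi replicate 3 stood apart from the other 8 libraries, with Ddx3y of the Y chromosome at 0 CPM and Xist at 29.2 CPM, the pattern of female cells. The other 8 had the pattern of male cells, with Ddx3y at 69.1 to 142.5 CPM and Xist at 0 to 0.0415 CPM (these values without TMM scaling). Each edgeR call among the 38 genes is therefore also given without WT Ly6Chi replicate 3. The summed level of 8 immediate early genes was lower in replicate 1 of each group (1582, 2322 and 1613 CPM) than in the other 6 libraries (10098 to 21989 CPM). Replicate 1 was the highest of its group in all 3 groups for 5 of the 38 genes (Ctsh, Ctss, Hexa, Lamp1 and Lamp2), a share of 13.2% beside 11.2% of all tested genes. It was the lowest in all 3 for Atp6v0a1, Ctse and Tfeb (7.89% beside 11% of all tested genes).

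Promoter windows of the members were searched for the E-box CACGTG, which reads the same on both strands. RefSeq promoter windows of GRCm38.p6, from 250 bases before a start site to 50 bases after it, were matched by symbol to 31 of the 38 genes. The motif was present in 11 of the 31 (35.5%), in 13 of 63 genes of other lysosomal lists (20.6%) and in 8.09% of all 27025 genes of the table. The longer form TCACGTGA, which contains the shorter one, was present in 5 of 31 members (16.1%) and in 304 of all 27025 genes. The 11 genes were Atp6v0d1, Atp6v1a, Ctsa, Ctsd, Ctsf, Ctsl, Gaa, Glb1, Lamp1, Lgmn and Mcoln1. The stretches below come from the 5 members with the longer form and from Lamp1, the member with the most copies. They are written 5′ to 3′ on the strand of the gene, with each CACGTG in capitals. A match describes the letters and is not evidence of binding.
Atp6v0d1, chr8:105566045-105566107, minus strand: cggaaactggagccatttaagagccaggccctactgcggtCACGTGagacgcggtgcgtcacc
Atp6v1a, chr16:44139345-44139430, minus strand: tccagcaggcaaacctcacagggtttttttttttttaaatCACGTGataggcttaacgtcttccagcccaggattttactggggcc
Ctsa, chr2:164833721-164833792, plus strand: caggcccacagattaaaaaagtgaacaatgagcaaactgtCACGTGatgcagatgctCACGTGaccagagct
Ctsd, chr7:142387880-142387965, minus strand: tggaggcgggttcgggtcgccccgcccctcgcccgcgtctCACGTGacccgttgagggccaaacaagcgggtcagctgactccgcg
Mcoln1, chr8:3500434-3500519, plus strand: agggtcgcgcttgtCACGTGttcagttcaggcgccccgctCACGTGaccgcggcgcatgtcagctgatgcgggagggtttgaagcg
Lamp1, chr8:13159060-13159161, plus strand: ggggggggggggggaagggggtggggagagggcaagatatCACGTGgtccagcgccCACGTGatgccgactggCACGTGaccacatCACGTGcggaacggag

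Lysosomal transcripts were abundant in all 3 groups. Together the 38 genes took 2.53% to 3.42% of all TPM (the length-corrected level, which sums to the same total in each library), and 4 of them, Psap, Cst3, Ctss and Ctsb, held 60% to 71.5% of that share. By mean TPM over the 9 libraries the order began with Psap at 6541, Cst3 at 5841, Ctss at 5064, Ctsb at 2305, Cd68 at 1862, Ctsz at 1682, Lamp1 at 1220 and Ctsa at 930 TPM. Psap encodes the precursor of the saposins, which present sphingolipids to their hydrolases, and Cst3 encodes cystatin C, an inhibitor of cysteine cathepsins. The order of the leading genes was not the same in every group. Psap led in WT Ly6Chi with 10408 ± 2322 TPM (SD, n = 3), above Ctss with 5356 ± 219 TPM and Cst3 with 3962 ± 596 TPM. Cst3 led in WT Ly6Clo with 7026 ± 961 TPM, above Ctss with 4668 ± 675 TPM and Psap with 4578 ± 1934 TPM, of which the last pair differed by less than their spread. The lowest members were Npc1 at 5 TPM, Mitf at 2.69 TPM and Ctsf at 0.949 TPM on average. Within a group, the SD over the mean CPM had a median of 16.5% over the members in WT Ly6Chi, 14.7% in WT Ly6Clo, and 20% for the KO libraries. It was highest for Ctsf in KO Ly6Clo (106%), whose libraries ran from 0.031 to 4.2 CPM.

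**Figure D1:**
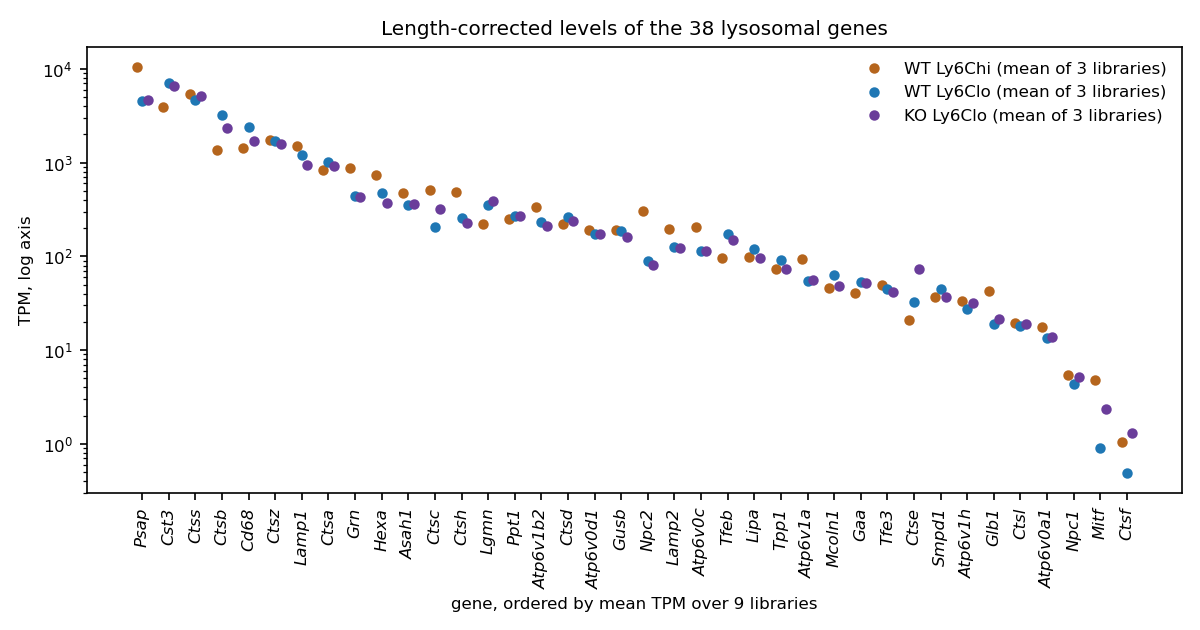
Length-corrected levels (TPM, log axis) of the 38 genes, ordered by their mean over 9 libraries, with 1 point per group for the mean of 3 libraries. Psap is the highest gene in WT Ly6Chi (10408 TPM) and Cst3 in WT Ly6Clo (7026 TPM) and KO Ly6Clo (6534 TPM).

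The nonclassical subset of the wild type differed from the classical one at 5 of the 38 genes, which did not all move the same way. Ctsb and Cd68 rose, and Npc2, Grn and Mitf fell, at an adjusted p under 0.05 over the 18341 genes tested by edgeR (13.2% of the members beside a background of 3.51% of all genes, 1.88% higher and 1.62% lower). All 38 members passed the filter on low counts. For 23 members all libraries of 1 group lay above those of the other in CPM (60.5%, beside 28.3% of all genes). Of these, 8 were higher and 15 lower in WT Ly6Clo (13.6% and 14.7% of all genes). Some gaps were narrow, as for Lamp2 (490 against 493 CPM), and Lamp2, Ctss and Lipa overlapped in TPM. An unadjusted p under 0.05 was reached by 19 members (50%, beside 18.2%). Values lay below 0 for 24 of 38 members (63.2%, beside 50.2% of all genes). The median log2 fold change of the members was -0.19, and that of all tested genes was 0.00. In bulk RNA, fewer cells of a type and less RNA per cell cannot be told apart.

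Loss of the +37 element within Ly6Clo monocytes was followed by no called change among the 38 genes. The edgeR count was 0 of 38 (background 0.0709%, 13 of 18341 genes), and DESeq2 and limma-voom each called 0 of 38 as well. An unadjusted p under 0.05 was reached by 7 members (18.4%, beside 6.16% of all genes). They were Ctsb, Hexa, Lipa, Lamp1, Cd68 and Mcoln1 with values below 0 and Mitf with a value above 0. In CPM the libraries did not overlap for 8 members (21.1%, beside 10.9%, of which 5.7% lower and 5.22% higher). Of these, Ctsb, Ctsa, Lipa, Smpd1, Lamp1, Cd68 and Mcoln1 were lower and Mitf higher in KO Ly6Clo. The gaps of Smpd1 (39.252 against 39.247 CPM) and Mitf (2.10 against 2.11 CPM) were narrow, and Smpd1 and Lipa overlapped in TPM. Values lay below 0 for 29 of 38 members (76.3%, beside 47.3% of all genes), with a median of -0.14 against 0.03 for all genes. The same lean was seen in 54 of 77 tested genes of other lysosomal lists (70.1%) and in 8 of 9 markers of the sort and the monocyte subsets. With a library left out, the median of the members ran from -0.05 (without WT Ly6Clo replicate 2) to -0.23 (without KO replicate 2). The SE of the log2 fold changes ran from 0.14 for Lamp1 to 1.22 for Ctsf. Both comparisons use the same WT Ly6Clo libraries, so a level that is high or low there by chance moves both with opposite sign.

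**Figure D2:**
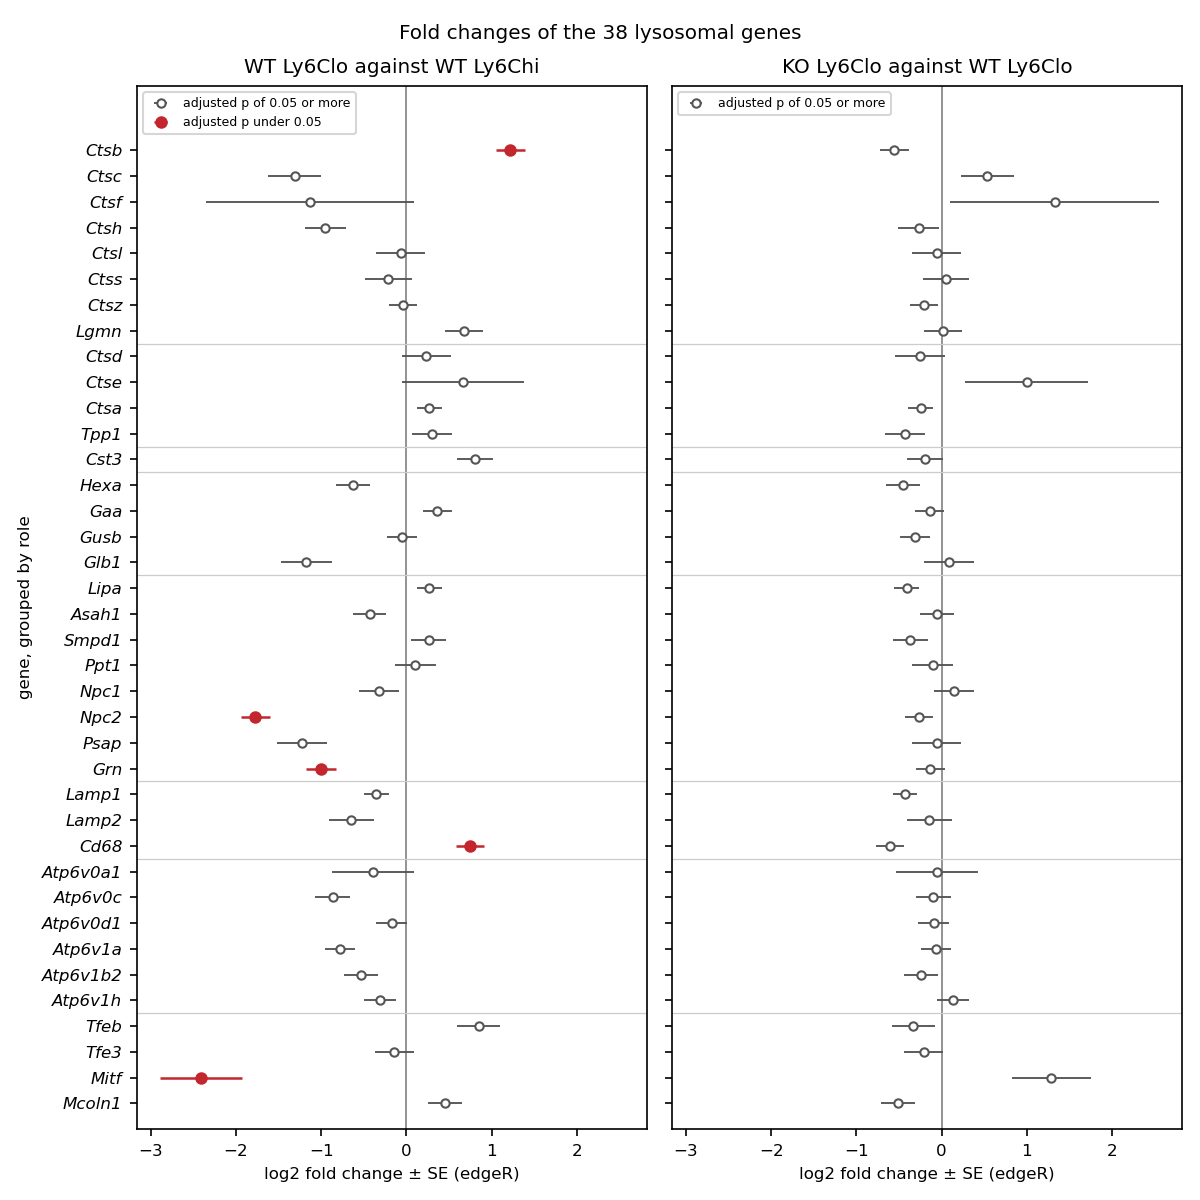
Log2 fold changes with SE (edgeR) of the 38 genes, grouped by role, for WT Ly6Clo against WT Ly6Chi and for KO Ly6Clo against WT Ly6Clo. Filled red points mark the 5 genes with an adjusted p under 0.05 in the first comparison (Ctsb 1.22, Cd68 0.74, Npc2 -1.78, Grn -1.0, Mitf -2.41), and the second comparison has none.

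Among the 8 cysteine proteases only Ctsb was called between the WT subsets. Ctsb (ENSMUSG00000021939, chromosome 14, 63122462 to 63145923, GRCm38) encodes cathepsin B, an endopeptidase that also removes dipeptides from chain ends. Its level was 2277, 2858 and 3017 CPM in WT Ly6Chi, 6295, 7433 and 5267 CPM in WT Ly6Clo, with KO Ly6Clo at 4701, 4343 and 3880 CPM. All WT Ly6Clo libraries were above all KO Ly6Clo libraries, which in turn were above all WT Ly6Chi libraries. The log2 fold change was 1.22 (SE 0.17, edgeR adjusted p = 0.0076) between the WT subsets and -0.56 (SE 0.17, adjusted p = 0.55, unadjusted p = 0.0099) for KO against WT Ly6Clo. The first call was kept in 17 of 17 alternatives, without WT Ly6Chi replicate 3 among them. The difference was 1.59 among the 5 libraries of the lower run of library numbers and 0.84 among the 4 of the higher run. The lower run holds replicate 1 of each group and replicate 2 of both Ly6Clo groups, and the higher run holds the rest. Between the WT subsets, each run therefore has 1 library of 1 subset and 2 of the other. An exon of Fdft1 overlaps Ctsb on the other strand, and the sources used here do not say whether counting used strand.

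Ctsc and Ctsh encode exopeptidases: cathepsin C activates granule serine proteases and cathepsin H is an aminopeptidase. Ctsh stood at 904, 665 and 597 CPM in WT Ly6Chi, 410, 381 and 329 CPM in WT Ly6Clo, with KO Ly6Clo at 416, 249 and 264 CPM. All 3 WT Ly6Chi libraries were above the 6 others, and the edgeR adjusted p between the WT subsets was 0.069 (log2 fold change -0.95, SE 0.24). Ctsc stood at 1341, 730 and 815 CPM in WT Ly6Chi, 352, 485 and 325 CPM in WT Ly6Clo, with KO Ly6Clo at 520, 771 and 397 CPM. Its WT groups did not overlap (log2 fold change -1.31, SE 0.31, edgeR adjusted p = 0.057), whereas KO replicate 2 lay inside the WT Ly6Chi range. DESeq2 called both genes between the WT subsets (adjusted p = 0.0054 for Ctsh and 0.0018 for Ctsc).

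Ctss, which encodes cathepsin S, the main protease of invariant chain trimming in antigen-presenting cells, was the most abundant cysteine protease by mean TPM in every group. It stood at 2457, 2335 and 2361 CPM in WT Ly6Chi, 2326, 2004 and 1842 CPM in WT Ly6Clo, with KO Ly6Clo at 3252, 1704 and 1441 CPM. The WT groups did not overlap by a narrow margin, KO replicate 1 was the highest of the 9 libraries and KO replicate 3 the lowest, and no comparison was called. Lgmn, which encodes the asparaginyl endopeptidase legumain, ran from 126 to 199 CPM in WT Ly6Chi and from 216 to 338 CPM in the 6 Ly6Clo libraries. The edgeR adjusted p of Lgmn was 0.15 between the WT subsets, and its log2 difference was 1.23 in the lower run of library numbers and 0.18 in the higher. Ctsz (620 to 947 CPM over 9 libraries), Ctsl (29.3 to 58.6 CPM) and Ctsf (0.031 to 4.2 CPM) overlapped between groups in each comparison. Ctsz and Ctsl have exons that overlap other genes.

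Summed over the 8 cysteine proteases, the level was 9710 ± 99.1 TPM in WT Ly6Chi, 10417 ± 964 TPM in WT Ly6Clo, with KO Ly6Clo at 10049 ± 2519 TPM. These sums differed by less than their spread, while their makeup did not stay the same. Ctsb held 11.9%, 14.7% and 15.7% of the sum in WT Ly6Chi, 29%, 34% and 29.3% in WT Ly6Clo, with KO Ly6Clo at 19.8%, 25.2% and 26.7%. Ctss held 53.6% to 57.1% in WT Ly6Chi, 40.9% to 47.7% in WT Ly6Clo, with KO Ly6Clo at 44.1% to 61.2%.

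Cst3, the inhibitor, was high in both Ly6Clo groups. Its level was 1342, 1846 and 1754 CPM in WT Ly6Chi, 3162, 2662 and 2821 CPM in WT Ly6Clo, with KO Ly6Clo at 3236, 2351 and 1953 CPM. Every Ly6Clo library was above every WT Ly6Chi library. The log2 fold change between the WT subsets was 0.81 (SE 0.21, edgeR adjusted p = 0.072), which DESeq2 called (adjusted p = 0.011). Cst3 over the summed TPM of the 8 cysteine proteases was 0.334, 0.455 and 0.436 in WT Ly6Chi, 0.696, 0.582 and 0.75 in WT Ly6Clo, with KO Ly6Clo at 0.653, 0.652 and 0.643. The ratio separated the subsets without overlap, and the KO libraries lay within the range of WT Ly6Clo. These are transcript ratios and say nothing of protein.

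**Figure D3:**
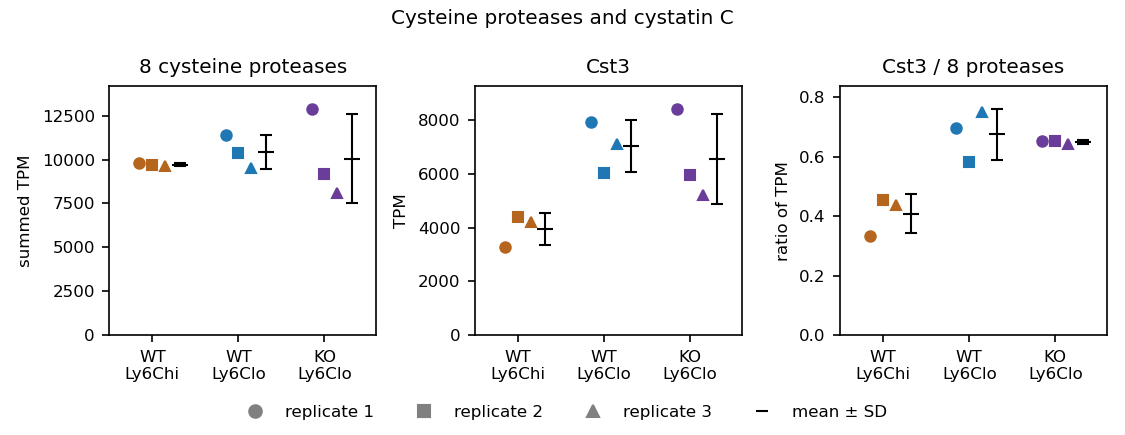
Summed TPM of the 8 cysteine proteases, TPM of Cst3, and their ratio in each of the 9 libraries, with mean and SD of 3 libraries per group. The sums overlap between groups, and the ratio is 0.334 to 0.455 in WT Ly6Chi against 0.582 to 0.75 in the 6 Ly6Clo libraries.

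The 4 aspartic and serine proteases were not called in any comparison. Ctsa, which encodes cathepsin A, a carboxypeptidase that protects other lysosomal enzymes in a complex, was the most abundant. It stood at 1131, 1457 and 1326 CPM in WT Ly6Chi, 1487, 1775 and 1455 CPM in WT Ly6Clo, with KO Ly6Clo at 1408, 1296 and 1270 CPM. The 3 KO libraries were below the 3 WT Ly6Clo libraries (log2 fold change -0.25, SE 0.15, edgeR adjusted p = 0.97). Ctsd, encoding the aspartic protease cathepsin D, ran from 121 to 251 CPM, and Tpp1, encoding tripeptidyl peptidase, from 99 to 193 CPM. Ctse, encoding cathepsin E, varied most among them, at 17.5, 24.7 and 23.6 CPM in WT Ly6Chi, 9.72, 56.5 and 38.1 CPM in WT Ly6Clo, with KO Ly6Clo at 18.3, 59.8 and 130 CPM.

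The glycosidases split by gene. Hexa, encoding the alpha chain of beta-hexosaminidase, stood at 555, 452 and 430 CPM in WT Ly6Chi, 364, 317 and 247 CPM in WT Ly6Clo, with KO Ly6Clo at 268, 210 and 200 CPM. All WT Ly6Chi libraries were above all Ly6Clo libraries, while the Ly6Clo groups overlapped. The edgeR log2 fold changes of Hexa were -0.63 (SE 0.20, adjusted p = 0.14) between the WT subsets and -0.45 (SE 0.20, adjusted p = 0.8) for KO against WT Ly6Clo. DESeq2 called the first of these (adjusted p = 0.041), as did edgeR with a replicate block (0.033) or a term for the run of library numbers (0.049). Glb1, the gene of beta-galactosidase, had 45.4, 33.6 and 46.4 CPM in WT Ly6Chi and 15.3 to 27.4 CPM in the 6 Ly6Clo libraries. That gap gave a log2 fold change of -1.17 (SE 0.30, edgeR adjusted p = 0.068) between the WT subsets. Glb1 was called there by DESeq2 (adjusted p = 0.0035), by limma-voom (0.047), and by edgeR with a filter of 1 CPM in 3 libraries (0.045) or the 2 groups alone (0.044), and it shares exons on the same strand with Tmppe. Gaa, the gene of acid alpha-glucosidase, was at 53.1 to 74.4 CPM in WT Ly6Chi and 77 to 92.4 CPM in WT Ly6Clo (edgeR adjusted p = 0.3). Gusb, the gene of beta-glucuronidase, overlapped between groups in each comparison, between 187 and 307 CPM.

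Genes of lipid breakdown and lipid handling included the member with the smallest adjusted p. Npc2 (ENSMUSG00000021242, chromosome 12, 84754562 to 84773152) encodes a soluble protein that binds cholesterol in the lysosome and hands it to the membrane protein NPC1. Its level was 502, 596 and 536 CPM in WT Ly6Chi, 185, 145 and 147 CPM in WT Ly6Clo, with KO Ly6Clo at 152, 127 and 118 CPM. Npc2 fell by 1.78 on the log2 scale between the WT subsets (SE 0.17, edgeR adjusted p = 0.0015), a call kept in 17 of 17 alternatives. The KO and WT Ly6Clo libraries overlapped (log2 fold change -0.27, SE 0.17, adjusted p = 0.99 by edgeR). Its partner Npc1 was low in every library, from 13.7 to 23.3 CPM, and overlapped between groups in each comparison.

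Grn (ENSMUSG00000034708, chromosome 11, 102430315 to 102437048) encodes progranulin, a secreted glycoprotein that is taken to lysosomes and cut there into granulins. It was measured at 942, 1057 and 1008 CPM in WT Ly6Chi, 497, 556 and 450 CPM in WT Ly6Clo, with KO Ly6Clo at 455, 552 and 366 CPM. Grn fell by 1.0 on the log2 scale between the WT subsets (SE 0.18, edgeR adjusted p = 0.019). The call was kept in 10 of 17 alternatives and was lost without any 1 of the 6 WT libraries (adjusted p from 0.051 to 0.096), 0.071 without WT Ly6Chi replicate 3, and without a filter on low counts (0.059). Its WT groups did not overlap, and an exon of Fam171a2 overlaps Grn on the other strand. Psap, named above as the most abundant member, showed 6879, 10322 and 10953 CPM in WT Ly6Chi, 4208, 2405 and 5454 CPM in WT Ly6Clo, with KO Ly6Clo at 3447, 3841 and 4289 CPM. Its edgeR adjusted p was 0.057 between the WT subsets (log2 fold change -1.22, SE 0.29), and WT Ly6Clo replicate 2 was the lowest of all libraries. DESeq2 called Psap between the WT subsets (adjusted p = 0.0026), as did limma-voom (0.035), and edgeR with the 1 CPM filter (0.038) or a replicate block (0.045).

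None of the acid hydrolases of lipid was called by edgeR in any comparison. Lipa, encoding lysosomal acid lipase, which frees cholesterol from its esters, stood at 207, 227 and 227 CPM in WT Ly6Chi, 299, 238 and 260 CPM in WT Ly6Clo, with KO Ly6Clo at 192, 222 and 185 CPM. In CPM, WT Ly6Clo was the highest group without overlap with either of the others, at an edgeR adjusted p of 0.39 against WT Ly6Chi and 0.68 for KO against WT Ly6Clo. In TPM, WT Ly6Clo (100.5 to 140 TPM) overlapped both WT Ly6Chi (94.5 to 101.4 TPM) and KO Ly6Clo (92.3 to 105 TPM). Smpd1, encoding acid sphingomyelinase, had 39.3 to 59.1 CPM in WT Ly6Clo, with KO Ly6Clo at 35.6 to 39.2 CPM. These ranges almost touched, and they overlapped in TPM. Asah1, encoding acid ceramidase, had 505 to 541 CPM in WT Ly6Chi and 358 to 410 CPM in WT Ly6Clo (edgeR adjusted p = 0.29). Ppt1, encoding a palmitoyl-protein thioesterase, ran from 216 to 414 CPM and overlapped between groups in each comparison.

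**Figure D4:**
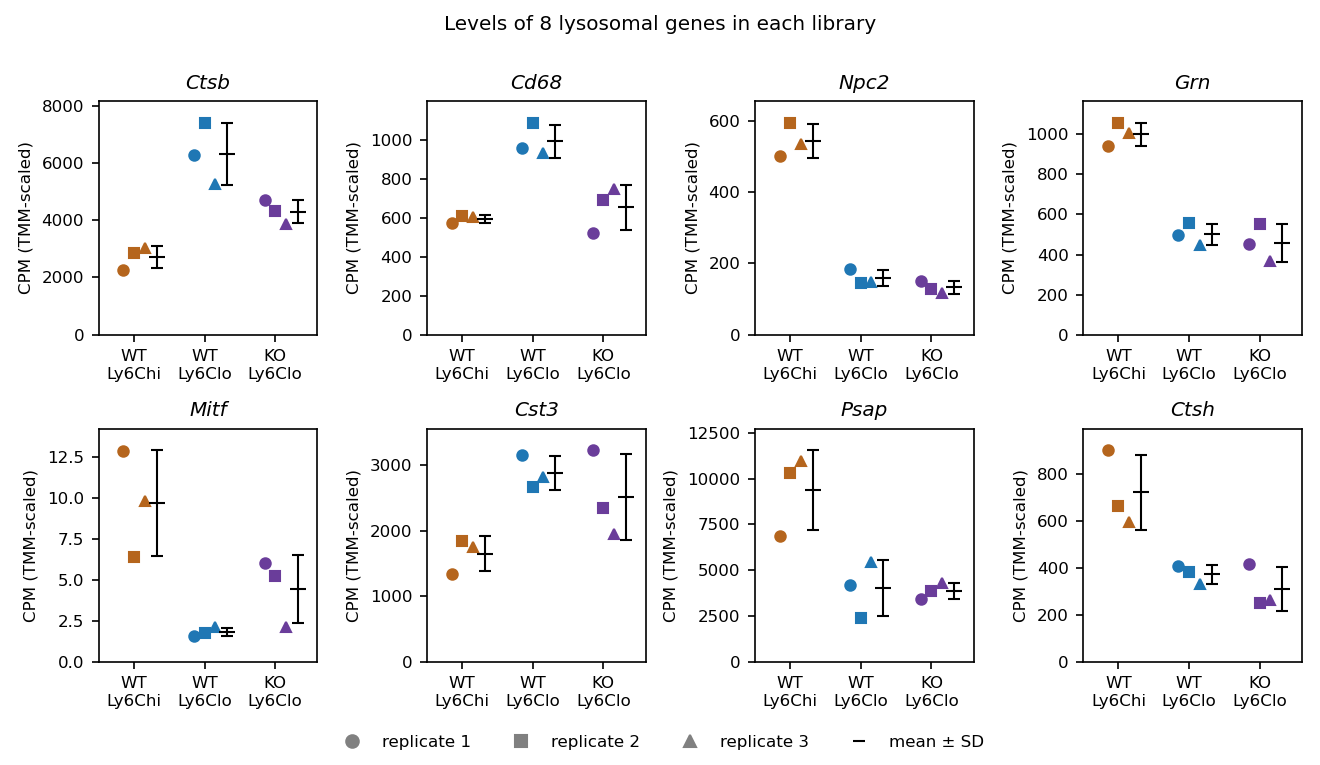
Levels (CPM on TMM-scaled library sizes) of 8 of the genes in each library, with mean and SD of 3 libraries per group. Ctsb and Cst3 are above every WT Ly6Chi library in all Ly6Clo libraries, Npc2, Grn, Psap and Ctsh are below, and Cd68 in KO Ly6Clo (521 to 746 CPM) lies below WT Ly6Clo (934 to 1091 CPM).

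The 3 membrane glycoproteins separated the WT subsets without overlap in CPM, in both directions, with a narrow margin for Lamp2. Cd68 (ENSMUSG00000018774, chromosome 11, 69664213 to 69666153) encodes macrosialin, a heavily glycosylated protein of late endosomes in phagocytes. It stood at 572, 609 and 604 CPM in WT Ly6Chi, 959, 1091 and 934 CPM in WT Ly6Clo, with KO Ly6Clo at 521, 694 and 746 CPM. The WT Ly6Clo libraries were above all others, and the KO libraries spanned the WT Ly6Chi range. Cd68 rose by 0.74 on the log2 scale between the WT subsets (SE 0.16, edgeR adjusted p = 0.043). Of 17 alternatives 7 kept the call, which was lost without any 1 of the 6 WT libraries (adjusted p from 0.11 to 0.15), 0.13 without WT Ly6Chi replicate 3, without KO replicate 2 (0.068) or 3 (0.06), with a term for the run of library numbers (0.062) and without a filter on low counts (0.11). For KO against WT Ly6Clo the log2 fold change was -0.61 (SE 0.16, unadjusted p = 0.0047, edgeR adjusted p = 0.46). Within runs it was -0.77 in the lower run of library numbers and -0.32 in the higher, which holds 1 library of each Ly6Clo group.

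Lamp1 and Lamp2 encode the major proteins of the lysosomal membrane, and LAMP2 also serves chaperone-mediated autophagy. Lamp1 stood at 1383, 1313 and 1287 CPM in WT Ly6Chi, 1109, 1072 and 938 CPM in WT Ly6Clo, with KO Ly6Clo at 858, 793 and 667 CPM. The 3 groups formed 3 separate steps with no overlap. By edgeR the log2 fold changes of Lamp1 were -0.35 (SE 0.14, adjusted p = 0.24) between the WT subsets and -0.43 (SE 0.14, adjusted p = 0.64) for KO against WT Ly6Clo. Lamp2 had 493 to 716 CPM in WT Ly6Chi, 337 to 490 CPM in WT Ly6Clo, with KO Ly6Clo at 257 to 477 CPM. Its WT groups overlapped in TPM (156 to 232 TPM in WT Ly6Chi and 104 to 163 TPM in WT Ly6Clo). Summed over the 3 glycoproteins, the level was 3152 ± 78.9 TPM in WT Ly6Chi, 3750 ± 152 TPM in WT Ly6Clo, with KO Ly6Clo at 2788 ± 181 TPM, with no overlap between any pair of groups. An exon of Grtp1 overlaps Lamp1 on the other strand.

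All 6 V-ATPase subunits had values below 0 in WT Ly6Clo against WT Ly6Chi (beside 50.2% of all genes), and none passed the edgeR test there. The median log2 fold change of the 6 was -0.47, and 3 of them did not overlap between the groups (50%, beside 28.3% of all genes). Atp6v1a, encoding the catalytic subunit A of V1, stood at 191, 172 and 194 CPM in WT Ly6Chi, 102, 119 and 105 CPM in WT Ly6Clo, with KO Ly6Clo at 80.2, 119 and 112 CPM. Its log2 fold change between the WT subsets was -0.78 (SE 0.18, edgeR adjusted p = 0.051). Atp6v0c, encoding the proteolipid ring subunit that carries protons, stood at 223, 218 and 242 CPM in WT Ly6Chi, 107, 145 and 123 CPM in WT Ly6Clo, with KO Ly6Clo at 85.3, 143 and 122 CPM. The gap between the WT subsets was -0.87 (SE 0.21, edgeR adjusted p = 0.058), and DESeq2 called both subunits (adjusted p = 0.0018 for Atp6v1a and 0.0039 for Atp6v0c).

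The other subunits overlapped more. Atp6v1b2, encoding a nucleotide-binding subunit of V1, stood at 557, 589 and 624 CPM in WT Ly6Chi, 384, 521 and 316 CPM in WT Ly6Clo, with KO Ly6Clo at 394, 323 and 312 CPM. WT Ly6Clo replicate 2 came close to the WT Ly6Chi range (edgeR adjusted p = 0.2). Atp6v1h (77.8 to 119 CPM) and Atp6v0d1 (72.4 to 119 CPM) overlapped between groups in each comparison, as did Atp6v0a1 (11 to 43.7 CPM), an isoform of the large membrane subunit. Summed over the 6 subunits, the level was 881 ± 16.5 TPM in WT Ly6Chi, 614 ± 60.7 TPM in WT Ly6Clo, with KO Ly6Clo at 601 ± 29.1 TPM. The sum of every WT Ly6Chi library was above that of every Ly6Clo library, and the Ly6Clo groups overlapped. For KO against WT Ly6Clo the 6 log2 fold changes lay between -0.25 (Atp6v1b2) and 0.13 (Atp6v1h), with 0 of 6 at an unadjusted p under 0.05.

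**Figure D5:**
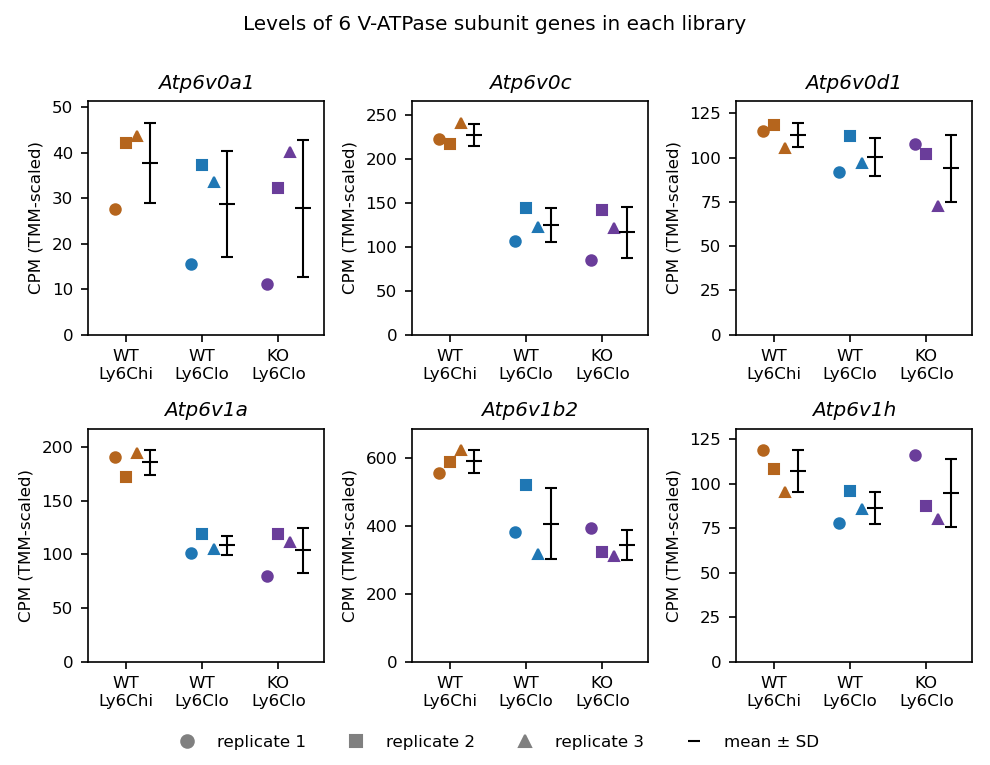
Levels (CPM on TMM-scaled library sizes) of the 6 V-ATPase subunit genes in each library, with mean and SD of 3 libraries per group. Atp6v0c, Atp6v1a and Atp6v1b2 show no overlap between WT Ly6Chi and WT Ly6Clo, and the 2 Ly6Clo groups overlap for all 6 genes.

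Of the MiT/TFE factors, Mitf fell and Tfeb had a value above 0 between the WT subsets. Mitf (ENSMUSG00000035158, chromosome 6, 97807052 to 98021349) was a rare transcript, at 12.9, 6.42 and 9.82 CPM in WT Ly6Chi, 1.6, 1.78 and 2.1 CPM in WT Ly6Clo, with KO Ly6Clo at 6.04, 5.22 and 2.11 CPM. The groups followed each other without overlap, although KO replicate 3 touched the top of WT Ly6Clo. Mitf fell by 2.41 on the log2 scale between the WT subsets (SE 0.48, edgeR adjusted p = 0.031). For KO against WT Ly6Clo the value was 1.29 (SE 0.47, edgeR adjusted p = 0.68). Within runs the latter was 1.48 in the lower run of library numbers and 0.00 in the higher, which holds 1 library of each Ly6Clo group. The call between the WT subsets was kept in 10 of 17 alternatives and was lost without any 1 of the 6 WT libraries (adjusted p from 0.056 to 0.12), 0.085 without WT Ly6Chi replicate 3, and without KO replicate 2 (0.052).

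Tfeb was the most abundant of the 3 factors by TPM in each group, and stood at 136, 215 and 183 CPM in WT Ly6Chi, 269, 372 and 319 CPM in WT Ly6Clo, with KO Ly6Clo at 178, 296 and 289 CPM. Every WT Ly6Clo library was above every WT Ly6Chi library (log2 fold change 0.85, SE 0.25, edgeR adjusted p = 0.11), and DESeq2 called it (adjusted p = 0.028). Tfe3 ran from 96.8 to 182 CPM and overlapped between groups in each comparison. Mcoln1, the calcium channel gene with 2 E-boxes in its promoter window, stood at 88.5, 135 and 121 CPM in WT Ly6Chi, 145, 170 and 155 CPM in WT Ly6Clo, with KO Ly6Clo at 100, 97.4 and 131 CPM. WT Ly6Clo was its highest group without overlap with the others, at an edgeR adjusted p of 0.27 against WT Ly6Chi and 0.73 for KO against WT Ly6Clo (log2 fold change -0.52, SE 0.20).

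Genes with an E-box in the window did not share a direction. In WT Ly6Clo against WT Ly6Chi, 5 of the 11 had values above 0 and 6 below, with a median log2 fold change of -0.07. The 20 members with a window and no E-box had 7 values above 0 and 13 below, with a median of -0.18. For KO against WT Ly6Clo the medians were -0.09 and -0.20. The Lamp1, Atp6v1a and Glb1 values were below 0 between the WT subsets, and those of Ctsa, Lgmn and Mcoln1 were above 0.

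Against WT Ly6Chi, KO Ly6Clo monocytes had 8 called members, all lower (21.1%, beside a background of 4.52% called and 2.46% called lower). This comparison shares libraries with both others and mixes subset with genotype. The 8 were Npc2 (log2 fold change -2.04, SE 0.17, edgeR adjusted p = 0.00051), Grn (-1.13), Hexa (-1.08), Lamp1 (-0.78), Ctsh (-1.22), Atp6v1a (-0.84), Atp6v0c (-0.96) and Psap (-1.28). Their libraries did not overlap between the groups, and in all 16 members showed no overlap (42.1%, beside 22.9% of all genes), 13 lower and 3 higher in KO Ly6Clo (11.7% and 11.3% of all genes). Values lay below 0 for 29 of the 38 (76.3%, beside 47.4% of all genes). Of the 9 members with values above 0, none was called, and Ctsb, Lgmn and Cst3 were the 3 without overlap. The calls of Npc2 and Grn were kept in 17 of 17 alternatives, that of Hexa in 13, Ctsh in 12, Psap in 11, Lamp1 in 10, Atp6v0c in 6 and Atp6v1a in 5. Without WT Ly6Chi replicate 3, edgeR no longer called Lamp1 (adjusted p = 0.062), Psap (0.14), Atp6v0c (0.13) or Atp6v1a (0.12). Leaving out any 1 of the 9 libraries ended the Atp6v1a call (edgeR adjusted p from 0.053 to 0.12), and any but KO replicate 2 ended that of Atp6v0c (0.051 to 0.13). The Hexa and Ctsh calls were each lost without WT Ly6Chi replicate 1 or 2 or KO replicate 2 or 3 (edgeR adjusted p from 0.057 to 0.088 for Hexa and from 0.067 to 0.11 for Ctsh). The Lamp1 call was lost without any 1 WT Ly6Chi library or KO replicate 2 or 3 (0.055 to 0.086), and that of Psap without WT Ly6Chi replicate 2 or 3, WT Ly6Clo replicate 1 or any 1 KO library (0.067 to 0.15).

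Of the marker lists for other cells, that of neutrophils held genes that fell between the WT subsets. No gene listed for the other cell types was called there by edgeR. The summed level of 8 neutrophil markers was 283 to 801 CPM in WT Ly6Chi, 1.27 to 4.62 CPM in WT Ly6Clo, with KO Ly6Clo at 2.10 to 32.8 CPM, with Retnlg, Mmp9, Camp, Ngp and Ltf at 0 in some library. Between the WT subsets 5 of these 8 markers were called, all lower in WT Ly6Clo (62.5%, beside 3.51% of all genes called and 1.62% called lower). Without WT Ly6Chi replicate 3 only S100a8 of the 5 was still called, and S100a9, Camp, Ngp and Ltf were not (edgeR adjusted p from 0.056 to 0.097). These 4 calls were also lost without WT Ly6Chi replicate 2 or any 1 WT Ly6Clo library (0.085 to 0.14), those of S100a9 and Ngp without WT Ly6Chi replicate 1 (0.075 and 0.08), and that of S100a9 without KO replicate 2 (0.053). The S100a8 call was lost without WT Ly6Clo replicate 2 (0.052). With all libraries, limma-voom did not call Camp, Ngp or Ltf between the WT subsets (limma-voom adjusted p from 0.11 to 0.15). For KO against WT Ly6Clo all 8 neutrophil markers had values above 0, with a median of 2.63. Of these, 3 had an unadjusted p under 0.05 (37.5%, beside 6.16% of all genes) and 0 were called by edgeR. Many of these levels were near 0, with Camp, Ngp and Ltf at means of 0 to 0.0122 CPM in WT Ly6Clo. In KO Ly6Clo these 3 stood at 0.421, 4.07 and 1.4 CPM in replicate 3 and at 0 to 0.0982 CPM in replicates 1 and 2. Ly6g ran from 0.0204 to 0.411 CPM over the 9 libraries, with means of 0.213 CPM in WT Ly6Chi and 0.222 CPM in WT Ly6Clo. Retnlg ran from 0 to 1.44 CPM over the same libraries. Whether the called genes of this list came from neutrophils or from the monocytes themselves was not tested. The 10 red pulp macrophage markers, of a cell type rich in lysosomes, summed to 197 to 323 CPM in WT Ly6Chi, 198 to 340 CPM in WT Ly6Clo, with KO Ly6Clo at 145 to 285 CPM, with Cd5l at 0 in some library. Of these 10, 0 were called by edgeR in any comparison, although all 10 values were below 0 for KO against WT Ly6Clo, with a median of -0.77. Between the WT subsets 9 of the 10 values were above 0 and 1 below (10%, beside 50.2% of all genes), with a median log2 fold change of 0.998. There 5 of the 10 did not overlap (50%, beside 28.3% of all genes), 4 higher and 1 lower in WT Ly6Clo (13.6% and 14.7% of all genes). The lower one was Axl, with means of 102 CPM in WT Ly6Chi and 21.6 CPM in WT Ly6Clo, which weighs on the sums. The summed level of the 8 conventional dendritic cell markers ran from 92.6 to 399 CPM and overlapped between groups, but some single markers did not. Between the Ly6Clo groups 3 of the 8 did not overlap (37.5%, beside 10.9% of all genes): Dpp4 at 56.7 to 67 CPM in WT and 125 to 348 CPM in KO, Zbtb46 at 6.05 to 24.7 and 25 to 37.7 CPM, and Cd209a at 4.93 to 59.9 and 1.27 to 2.24 CPM. For KO Ly6Clo against WT Ly6Chi edgeR called 2 of the 8 (25%, beside 4.52%), Dpp4 higher and Cd209a lower, and the Dpp4 call was lost without any 1 library but KO replicate 3 (adjusted p from 0.06 to 0.15, 0.093 without WT Ly6Chi replicate 3). Erythroid markers summed to 133 to 226 CPM in WT Ly6Chi and 404 to 3344 CPM in WT Ly6Clo, with KO Ly6Clo at 1.23 to 7546 CPM. Between the WT subsets 5 of the 6 did not overlap (83.3%, beside 28.3%), with a median log2 fold change of 2.91. B cell markers summed to 22.7 to 49.7 CPM in WT Ly6Chi and 53.4 to 131 CPM in WT Ly6Clo, with KO Ly6Clo at 24.3 to 76.9 CPM. Between the WT subsets 3 of the 5 did not overlap (60%, beside 28.3% of all genes), all higher in WT Ly6Clo (13.6% of all genes). All 5 values were above 0 there, with a median log2 fold change of 1.56. T and NK cell markers summed to 29 to 347 CPM and overlapped between groups, but single markers moved both ways between the WT subsets (5 above 0 and 3 below, median 1.1). Means of Ncr1, Klrb1c, Gzma and Prf1 were 3.16, 3.91, 11.9 and 7.82 CPM in WT Ly6Chi and 13.1, 14.9, 48.8 and 31.8 CPM in WT Ly6Clo. Those of Cd3e, Cd3d and Tcf7 were lower in WT Ly6Clo. Of the 8 markers 2 did not overlap, both higher in WT Ly6Clo (25%, beside 28.3% of all genes and 13.6% higher). The part of all these other cell types in the members' values was not tested.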

How the data were processed

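A cDNA kit for low RNA input (SMARTer Ultra Low) was used on RNA of sorted splenic monocytes, per the labels' protocols. A table of 55487 gene IDs exists for each of the 9 libraries. Its deposited counts are raw whole numbers of reads, per the file headers. The TPM values were deposited by the authors beside them and equal values recomputed from count and length (largest difference 5.8e-11); they served only to compare levels between genes. The submitters' processing notes name Salmon 0.8.2, STAR 2.5.1a, featureCounts 1.4.6-p5, Subread, bcl2fastq, edgeR, limma and GRCm38 (mm10), without roles. The sources used here do not say how strand and shared reads were treated, so genes with overlapping exons are less certain. Symbols came from GENCODE M21.

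The tests ran in edgeR 4.0.16 (R 4.3.3): filterByExpr (minimum count 10, 18341 genes kept), TMM scaling, 1 term per group over 9 libraries, and the quasi-likelihood test with Benjamini-Hochberg adjustment over all genes kept. A gene is called at an adjusted p under 0.05. CPM levels use TMM-scaled library sizes. SE values come from the F statistic. Within-run values use log2(CPM + 0.5) among the 5 libraries of the lower and the 4 of the higher run of library numbers, which the labels do not call a batch. Replicates differed by far more than sampling noise (chi-square per gene of 49.1 to 425 over 9 pairs). The code was tested on simulated data. Intervals are not given; without molecular identifiers, reads are not independent molecules.

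The 17 alternatives were RLE scaling, no filter, at least 1 CPM in 3 libraries as the filter, limma-voom (limma 3.58.1), DESeq2 1.42.0, the 2 groups alone, a replicate block, a run term and each of 9 libraries left out. Members, gene lists and tests were chosen with earlier results of these data known. All 38 members are named; of each other lysosomal list, up to 4 called genes with the smallest adjusted p per comparison, or, where none was called, up to 2 with the highest mean level, except 1 further lysosomal gene that is not reported here.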

Additional observations from a re-analysis of the deposited data

How the results depend on the processing

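No member reversed a called direction under any of the 17 alternatives in the 3 comparisons, and 63 uncalled values changed sign while staying uncalled. Of 1938 member values under alternatives, 69 lost a call and 49 gained one. For WT Ly6Clo against WT Ly6Chi, members called numbered 5 in the edgeR fit, 10 with a filter of 1 CPM in 3 libraries, 14 by DESeq2, 9 by limma-voom, 11 in a fit of the 2 groups alone and 12 with the replicate number as a block, and 2 to 9 with a library left out. For KO Ly6Clo against WT Ly6Chi, members called numbered 8, then 5 with no filter and 4 with the 2 groups alone, and 2 to 7 with a library left out. For KO against WT Ly6Clo the member count was 0 throughout. Genes called there numbered 13, then 54 with no filter, 27 with the 1 CPM filter, 277 by DESeq2, 0 with the 2 groups alone and 2 to 21 with a library left out. DESeq2 called 1960 genes between the WT subsets and 1951 for KO Ly6Clo against WT Ly6Chi, where edgeR called 643 and 829, and leaving out a library gave 239 to 847 and 379 to 818. The causes were not tested.

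Libraries of the same number share no stated litter or day. Their deviations from the group means correlated at 0.0048 to 0.277, all above 0, with those of replicate 1 at 0.198 to 0.277. Libraries of different number ran from -0.22 to 0.103. WT Ly6Chi replicate 3 had the pattern of female cells, with Ddx3y at 0 CPM. WT Ly6Clo replicate 3 had that of male cells, with Ddx3y at 136.5 CPM (both without TMM scaling). Those libraries were therefore not sorted from the same mice. Whether the numbers pair the libraries in another way, such as by litter or day, cannot be told from these values, and the main fit has no term for the numbers. A replicate block left the edgeR count for KO against WT Ly6Clo unchanged (13 genes and 0 members). Between the WT subsets it raised the count from 643 to 949 genes and from 5 to 12 members. For KO Ly6Clo against WT Ly6Chi it raised the count from 829 to 977 genes and from 8 to 9 members. With 3 libraries per group and SE of 0.14 and more, changes of single members can go uncalled, and an uncalled value does not show that levels were alike.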

Other observations

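Beyond the 38 genes, 83 further lysosomal genes in 5 lists were counted, of which 77 passed the filter on low counts. In WT Ly6Clo against WT Ly6Chi, 6 rose and 2 fell by edgeR (10.4% of those tested, beside 3.51% of all genes). Of 30 other hydrolases and activators 3 were called, Acp5 and Lyz2 among them. Acp5, tartrate-resistant acid phosphatase, rose from 24 to 34.1 CPM in WT Ly6Chi to 75.5 to 134 CPM in WT Ly6Clo (log2 fold change 1.87). Lyz2, lysozyme M, fell from a mean of 39078 to 15502 CPM (-1.33). Of 20 other membrane proteins and sorting genes 3 rose: Slc11a1, the metal transporter NRAMP1 (log2 fold change 1.30), Igf2r, the cation-independent mannose 6-phosphate receptor (4.05), and Gnptg, a subunit of the enzyme that makes the mannose 6-phosphate tag (0.98). Igf2r was at 0.834 to 2.04 CPM in WT Ly6Chi and at 19.1 to 29.4 CPM in WT Ly6Clo. Of 4 other protease inhibitors tested, Serpinb6a rose (2.75) and Cstb, the cytosolic inhibitor cystatin B, fell (-1.85). The calls of Acp5, Lyz2 and Serpinb6a were kept in 17 of 17 alternatives. Without WT Ly6Chi replicate 3, 6 of the 8 calls were kept, and that of Gnptg was lost (edgeR adjusted p = 0.059). The Gnptg call was also lost without WT Ly6Chi replicate 2 (0.056) or WT Ly6Clo replicate 1 (0.069) or 3 (0.054), and that of Slc11a1 without WT Ly6Chi replicate 2 (0.0502) or WT Ly6Clo replicate 1 (0.051). The Igf2r call was lost without WT Ly6Chi replicate 1 or 2 (0.062 each), and that of Cstb without WT Ly6Chi replicate 1 or any 1 WT Ly6Clo library (0.052 to 0.087).

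Other V-ATPase subunits did not pass the test in any comparison. Of 16 genes 12 were tested, 6 had values below 0 between the WT subsets (50%, beside 50.2% of all genes), and 3 had an unadjusted p under 0.05 (25%, beside 18.2%). The most abundant were Atp6ap1, with means of 644 CPM in WT Ly6Chi, 708 CPM in WT Ly6Clo and 606 CPM in KO Ly6Clo, and Atp6v0b, with 390, 437 and 361 CPM. Of 11 other regulators tested, 0 were called by edgeR in any comparison, and 2 had an unadjusted p under 0.05 between the WT subsets (18.2%, the same share as of all genes). The most abundant were Rragc, with means of 116, 114 and 113 CPM in the same order of groups, and Flcn, at 116, 140 and 136 CPM in WT Ly6Chi, 86.6, 233 and 95.3 CPM in WT Ly6Clo, with KO Ly6Clo at 67.4, 93.7 and 50.1 CPM. WT Ly6Clo replicate 2 was the highest library for Flcn, and the Ly6Clo groups overlapped.

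For KO against WT Ly6Clo edgeR called 0 of the 77 genes, and 12 had an unadjusted p under 0.05 (15.6%, beside 6.16% of all genes). The most abundant of the hydrolases, Lyz2, had 16990, 15158 and 14357 CPM in WT Ly6Clo, with KO Ly6Clo at 11057, 7457 and 11530 CPM, without overlap (edgeR log2 fold change -0.63, SE 0.17, adjusted p = 0.46). Gm2a, the GM2 activator, had a mean of 1345 CPM in WT Ly6Clo and 1216 CPM in KO Ly6Clo. Means of Laptm5, a lysosomal membrane protein of blood cells, were 3605 and 3473 CPM, those of Slc11a1 969 and 644 CPM, of Serpinb6a 67.8 and 119 CPM and of Cstb 26.4 and 27.3 CPM in the same order. Sort1, a sorting receptor for lysosomal proteins and progranulin, was chosen after its values were seen. It had 237, 308 and 259 CPM in WT Ly6Clo, with KO Ly6Clo at 86.1, 132 and 101 CPM (edgeR log2 fold change -1.33, SE 0.21, adjusted p = 0.086), and 4 of 17 alternatives called it. Against WT Ly6Chi, KO Ly6Clo had 12 called genes of the 77, 5 higher and 7 lower (15.6%, beside 4.52% of all genes, 2.06% higher and 2.46% lower). With the smallest adjusted p in their lists, Lyz2 (log2 fold change -1.96), Acp5 (2.10), Galns (-2.02), Igf2r (3.52), Slc17a5 (-1.22), Sort1 (-1.02), Gnptg (0.76), Serpinb6a (3.56) and Cstb (-1.80) were among them. The calls of Lyz2, Acp5 and Serpinb6a were kept in 17 of 17 alternatives. Without WT Ly6Chi replicate 3, 7 of the 12 calls were kept, and those of Slc17a5 (edgeR adjusted p = 0.11), Sort1 (0.084) and Gnptg (0.11) were among the 5 lost. Leaving out another library ended the call of Galns (WT Ly6Chi replicate 1 or 2 or KO replicate 1 or 3, 0.061 to 0.096), of Igf2r (WT Ly6Chi replicate 1 or 2, 0.078 each) and of Cstb (KO replicate 2 or 3, 0.069 and 0.079). The same held for Slc17a5 (any other but WT Ly6Chi replicate 2 and WT Ly6Clo replicate 2), Sort1 (WT Ly6Chi replicate 2, WT Ly6Clo replicate 1 or 3, KO replicate 1 or 3) and Gnptg (any other but KO replicate 1).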
